A study of Mus musculus with 14 samples.

Results

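Transcripts of 7 synaptic adhesion genes were followed in mouse cerebellum: the neuroligins Nlgn1, Nlgn2 and Nlgn3, the neurexins Nrxn2 and Nrxn3, and the MDGA genes Mdga1 and Mdga2. The genes were listed by name, with earlier results of these data known. Each of the 7 has a row among the 24100 genes of the count table. The mice were Astn2 wild type (WT) or Astn2 knockout (KO) littermates at postnatal day 21, and all carried the Tg(Pcp2-L10a-EGFP) bacTRAP transgene. That transgene puts an EGFP-tagged ribosomal protein L10a under Pcp2 control, which in cerebellum is active in Purkinje cells. Translating ribosome affinity purification (TRAP) pulls the tagged ribosomes down with antibodies against GFP, so TRAP libraries report RNA bound to Purkinje cell ribosomes. A small share of the cleared homogenate was kept before the pull-down as input, which stands for whole cerebellum. There were 4 input WT, 3 input KO, 3 TRAP WT and 4 TRAP KO libraries, of both sexes in each group.

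Neuroligins are postsynaptic adhesion proteins that bind neurexins on the presynaptic side, and the contact helps to organise the synapse. Nlgn1 is known mainly from excitatory synapses, Nlgn2 from inhibitory synapses, where it works with gephyrin, and Nlgn3 from both. Neurexins also have ligands other than neuroligins, among them the cerebellins, which act at the synapse between granule cell axons and Purkinje cells. MDGA proteins sit in the membrane beside neuroligins and block neurexin binding. ASTN2 is a membrane protein implicated in the trafficking of synaptic proteins, and neuroligins are among its reported partners, so the level of their transcripts in KO mice is one comparison the design allows.

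In the GENCODE M21 annotation of GRCm38 (mm10), Nlgn1 (Entrez 192167) lies at chr3:25426215-26332460 on the minus strand, Nlgn2 (216856) at chr11:69823122-69837784 on the minus strand and Nlgn3 (245537) at chrX:101299168-101325963 on the plus strand. Nrxn2 (18190) lies at chr19:6418731-6544169 and Nrxn3 (18191) at chr12:88722876-90334935, both on the plus strand. Mdga1 (74762) lies at chr17:29827949-29970087 and Mdga2 (320772) at chr12:66466060-67222549, both on the minus strand. All 7 are protein-coding, with up to 8 exons in a transcript of each neuroligin and up to 23 in Nrxn2, 21 in Nrxn3, 21 in Mdga1 and 17 in Mdga2. Exons of Nrxn2 overlap those of Slc22a12 on the opposite strand. Slc22a12 had at most 35 counts in any library, against at least 4514 for Nrxn2. Exons of Nlgn1, Nlgn3, Nrxn2, Nrxn3 and Mdga2 also overlap annotated transcripts that have no row in the table, and whether counting used strand is not given in the sources used here, so reads of such neighbours cannot be told apart from those of the genes.

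Nlgn2 and Mdga2 were the 2 members with more RNA in TRAP than in input, and the 250 bases before their annotated starts are shown for that reason. The RefSeq table of promoters (GRCm38.p6) holds an entry for 5 of the 7 members. The Nlgn2 window is chr11:69837785-69838034 and the Mdga2 window chr12:67222550-67222799, both read 5′ to 3′ on the minus strand, with GGGCGG, the core of a GC box, in capitals.
Nlgn2: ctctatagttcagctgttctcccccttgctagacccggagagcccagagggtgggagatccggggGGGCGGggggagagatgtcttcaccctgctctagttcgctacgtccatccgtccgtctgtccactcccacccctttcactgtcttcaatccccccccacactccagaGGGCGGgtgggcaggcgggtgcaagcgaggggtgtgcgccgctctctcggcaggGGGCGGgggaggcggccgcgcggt
Mdga2: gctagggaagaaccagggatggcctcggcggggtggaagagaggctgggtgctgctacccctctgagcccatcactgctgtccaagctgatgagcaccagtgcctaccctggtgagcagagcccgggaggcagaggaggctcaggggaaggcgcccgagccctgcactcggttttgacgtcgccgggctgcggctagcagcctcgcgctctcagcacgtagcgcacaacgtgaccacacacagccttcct
The Nlgn2 window holds 3 copies of GGGCGG, beginning 185, 78 and 24 bases before the start, and the Mdga2 window holds none. That motif, searched on both strands, occurs in 32.7% of the 32851 windows of the same length in the table. Neither window holds the TATA box TATAAA (in 12.4% of all windows on either strand), the CCAAT box (33.8%), the nuclear receptor half-site AGGTCA (14%), the E-box CACGTG (6.0%) or the cAMP response element TGACGTCA (1.5%). GC content was 67.6% for Nlgn2 and 65.6% for Mdga2, against a median of 52.4% over the table. The windows thus shared a high GC content and not the motif.

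Each library held between 18.8 and 54.2 M counts (M, 1e6). The unit of level is CPM, counts per 1e6 counts after composition scaling by TMM. A floor of 3 counts corresponds to 0.0444 to 0.204 CPM, and it covers counting error only. Every member lay above its floor in every library, the lowest value being 39 counts of Mdga1 in 1 TRAP WT library. Astn2 was at 87.8 to 104 CPM in input WT and 116 to 145 CPM in TRAP WT, and at 0.739 to 0.970 CPM in input KO and 1.06 to 2.10 CPM in TRAP KO. The summed level of 8 Purkinje markers in TRAP was 1428% of input in WT and 1195% in KO, and that of 8 granule cell markers 21.1% and 21.4%. In TRAP all 8 granule markers were below input in both genotypes. Interneuron markers stood at 60.7% and 70.3% of input, those of astroglia at 26.4% and 29.2%, oligodendrocytes 23.5% and 27.2%, their precursors 43.7% and 47.9%, microglia 24.5% and 27.2% and endothelium 44.1% and 54.3%. Among the 8 interneuron markers, 6 lay below input in both genotypes. The exceptions, which raise the sum, were Gad2, at 147% of input in WT and 126% in KO, and Prkcd, at 133% and 201%. Choroid plexus markers varied most, at 11.8, 1155 and 9.74 CPM in the input KO libraries and 84.4 to 105 CPM in TRAP KO. Their mean summed level in TRAP was 96.4% of input in WT and 24.0% in KO, where the input mean rested on 1 library. Of the 4 choroid plexus genes, Clic6 was higher in every TRAP library than in every input library of its genotype. It made up 91.5 of the mean 94.2 CPM in TRAP KO. RNA of other cells was thus still measured in TRAP. Its summed level was lower than in input for each panel of other cells but choroid plexus, which varied too much to compare. Its part in the levels of the 7 genes was not tested. TRAP WT library 3 stood apart from the others of its group, and TRAP KO library 4 was the lowest of its group for Nlgn2, Nrxn2, Nrxn3 and Mdga1. Fold changes and ratios of the 7 genes that rest on them are therefore given also without them. Marker sums, levels per kb, shares within families, partner lists and correlations between genes are given with all libraries only. The labels do not say which libraries share an animal, so p-values measure the spread between libraries.

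Among the neuroligins, Nlgn2 was the abundant member and the one that rose in the Purkinje fraction. Its level was 211, 223, 218 and 230 CPM in the input WT libraries and 534, 757 and 735 CPM in TRAP WT. In KO it was 197, 207 and 210 CPM in input and 661, 568, 664 and 469 CPM in TRAP. Every TRAP library lay above every input library in both genotypes. The log2 fold change of TRAP against input was 1.62 ± 0.14 (SE) in WT, a 3.08-fold rise (adjusted p 1.38e-07, edgeR's quasi-likelihood test), and 1.53 ± 0.15 in KO (adjusted p 4.43e-07). In bulk libraries, a difference in the number of cells of a type and one in RNA per cell cannot be told apart.

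Nlgn1 fell in the same comparison. It was at 15.1, 16.3, 15.6 and 16.2 CPM in input WT and at 8.37, 6.44 and 8.20 CPM in TRAP WT. In KO the values were 16.7, 18.3 and 16.8 CPM in input and 7.80, 7.57, 8.13 and 8.97 CPM in TRAP. All TRAP libraries were below all input libraries. The difference on the log2 scale was -1.03 ± 0.12 (SE) in WT (adjusted p 4.11e-06, edgeR) and -1.07 ± 0.12 in KO (adjusted p 1.99e-06). TRAP held 48.5% of the input level in WT and 47.0% in KO.

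Nlgn3, the neuroligin found at both kinds of synapse, did not pass the test in either genotype. It was at 28.2, 31.7, 29.7 and 33.3 CPM in input WT and at 19.5, 20.8 and 39.9 CPM in TRAP WT. The third TRAP WT library was above all input WT libraries and the other two were below them. In KO the input libraries were at 28.6, 32.1 and 32.1 CPM and the TRAP libraries at 21.8, 24.5, 22.6 and 25.2 CPM, without overlap. TRAP against input came to -0.19 ± 0.19 (SE, adjusted p 0.372, edgeR) in WT and -0.41 ± 0.18 (adjusted p 0.0577) in KO. Without TRAP WT library 3 the WT value was -0.61 (adjusted p 1.07e-04, edgeR), so that library decided the call. In KO the call depended on the setting, since the value passed as lower under 8 of 18 alternatives, among them DESeq2 size factors (-0.43, adjusted p 0.0434, edgeR), the DESeq2 Wald test (-0.43, adjusted p 0.0379) and a fit of the 7 KO libraries alone (-0.41, adjusted p 0.00461, edgeR).

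**Figure D1:**
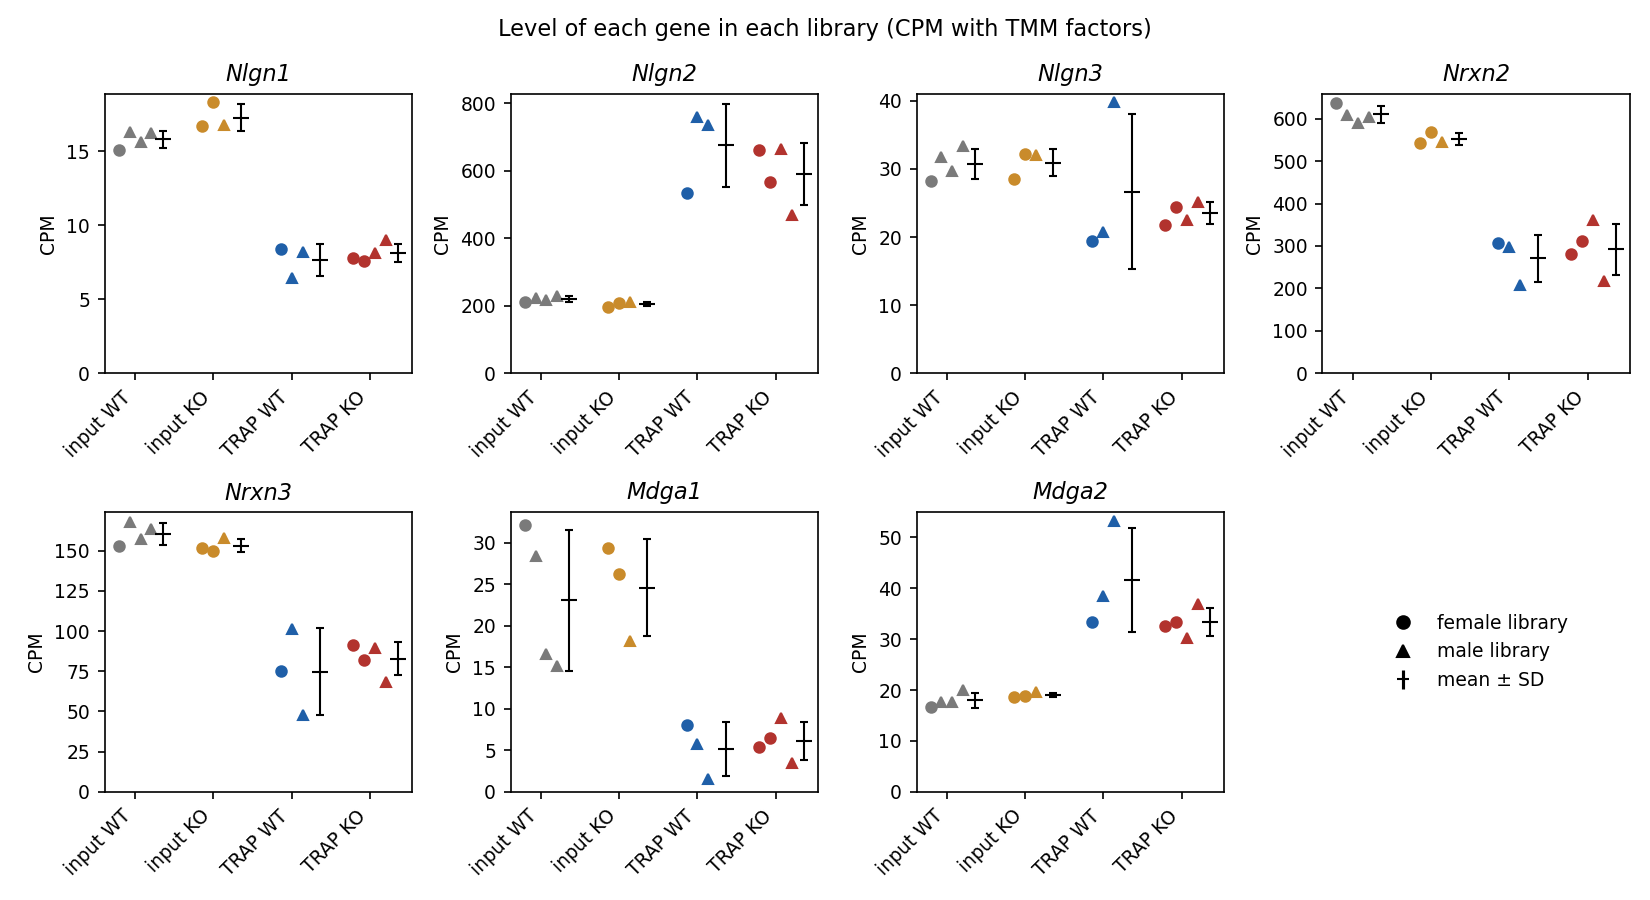
Level of each of the 7 genes in every library, in CPM with TMM factors on linear axes that start at 0, by group, with circles for female and triangles for male libraries and mean ± SD beside the points. Nlgn2 and Mdga2 sit higher in TRAP than in input in both genotypes, Nlgn1, Nrxn2, Nrxn3 and Mdga1 sit lower, and the TRAP WT points of Nlgn3 run from 19.5 to 39.9 CPM.

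The neurexins were both lower in the Purkinje fraction. Nrxn2 was the most abundant of the 7 genes in input, at 638, 608, 590 and 603 CPM in WT and 543, 569 and 544 CPM in KO. In TRAP it was at 307, 297 and 208 CPM in WT and 280, 312, 362 and 218 CPM in KO, below every input library of its genotype. On the log2 scale TRAP against input was -1.18 ± 0.16 (SE, adjusted p 1.82e-05, edgeR) in WT and -0.88 ± 0.16 (adjusted p 1.94e-04) in KO. Nrxn2 in TRAP was 44.4% of its input level in WT and 53.0% in KO.

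Nrxn3 was at 153, 168, 157 and 163 CPM in input WT and at 75.3, 101 and 47.6 CPM in TRAP WT. In KO it was at 152, 150 and 158 CPM in input and 91.5, 82.2, 89.2 and 68.5 CPM in TRAP. The groups did not overlap, and TRAP WT library 3 was the lowest of all. Its change was -1.10 ± 0.19 (SE, adjusted p 1.59e-04, edgeR) in WT and -0.87 ± 0.19 (adjusted p 8.51e-04) in KO. Neurexins are best known from the presynaptic side, and the granule cells that supply most Purkinje cell inputs make up most neurons of the cerebellum. Whether this bears on the lower neurexin levels in TRAP was not tested.

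The MDGA genes moved in opposite directions. Mdga2 was at 16.7, 17.6, 17.5 and 20.0 CPM in input WT and rose to 33.4, 38.5 and 53.1 CPM in TRAP WT. In KO it was at 18.7, 18.9 and 19.5 CPM in input and 32.6, 33.3, 30.3 and 37.0 CPM in TRAP. Every TRAP library exceeded every input library. The log2 fold change was 1.23 ± 0.13 (SE, adjusted p 1.31e-06, edgeR) in WT and 0.80 ± 0.13 (adjusted p 1.03e-04) in KO.

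Mdga1 was at 32.2, 28.5, 16.6 and 15.2 CPM in input WT and at 8.09, 5.76 and 1.61 CPM in TRAP WT. In KO it was at 29.4, 26.2 and 18.1 CPM in input and 5.46, 6.45, 8.95 and 3.48 CPM in TRAP. It was the only member whose input WT libraries were as far apart as this, with an SD of 36.7% of the mean, against at most 8.06% for the other members. Input and TRAP still did not overlap. The log2 fold change was -2.27 ± 0.42 (SE, adjusted p 2.11e-04, edgeR) in WT, where TRAP held 22.3% of the input level. In KO it was -1.88 ± 0.38 (adjusted p 5.35e-04), with 24.7% of the input level.

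Over the family, 2 of 7 members were higher and 4 lower in TRAP in each genotype, and the median change of the 7 was -1.03 (log2) for WT and -0.87 for KO. Among the 16042 genes tested, 37.0% were called higher and 38.5% lower in WT, 75.5% in all, and the median log2 fold change was -0.09. In KO 36.3% were higher and 39.6% lower, 75.9% in all, with a median of -0.11. Groups that did not overlap were found for 6 members in WT, against 72.6% of all genes, and for 7 in KO, against 78.0%. A call in this contrast is therefore common, and the share of members called is near that of all genes. Without TRAP WT library 3 and TRAP KO library 4, 2 members were higher and 5 lower in each genotype, Nlgn3 then being among those lower.

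All members have long transcripts, and the contrast depended on length. Their longest annotated transcripts run from 5.57 kb in Nlgn2 to 11.8 kb in Nlgn1, which puts all 7 among the longest of 5 equal groups of the genes tested. That group had a median of -0.75 (log2) in WT and -0.80 in KO, with 19.0% called higher and 58.9% lower in WT, whereas the group of shortest genes had medians of 0.77 in both genotypes. With per-library offsets for transcript length, an alternative chosen after seeing the data, Nlgn2 stood at 2.16 in WT and 2.06 in KO and Mdga2 at 2.24 and 1.84, both still called higher. Nlgn3 turned to 0.69 in WT (adjusted p 0.00110, edgeR) and 0.50 in KO (adjusted p 0.0108) and Nlgn1 to 0.11 in both, with adjusted p of 0.374 and 0.380. Nrxn3 lost its call, at -0.23 in WT and -0.02 in KO, as did Nrxn2 in KO at -0.19. Nrxn2 in WT stayed lower at -0.47 (adjusted p 0.0275, edgeR), and Mdga1 at -1.35 in WT and -0.98 in KO. The calls of Nlgn1 and Nrxn3 in both genotypes, and of Nrxn2 in KO, thus depended on whether a gene was compared with all genes or with genes of like length.

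Scaling by library totals shifted the median of all genes by -0.82 in WT and -0.73 in KO. The share of calls that were higher went from 49.0% to 24.2% (WT) and from 47.8% to 24.5% (KO). Nlgn2 remained higher under that scaling, at 0.80 in both genotypes, and Mdga2 remained so in WT at 0.41. Mdga2 in KO, at 0.06 (adjusted p 0.654, edgeR), was no longer called, and Nlgn3 was called lower at -1.01 and -1.14.

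**Figure D2:**
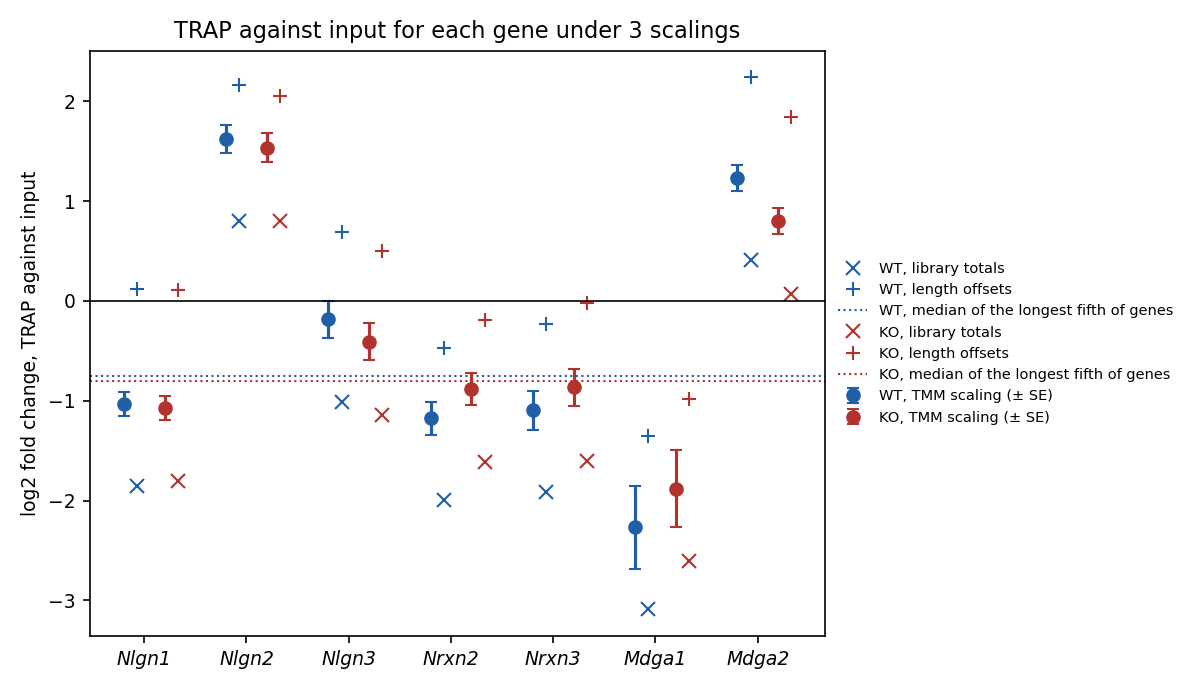
Log2 fold change of TRAP against input (vertical axis) for each gene in WT (blue) and KO (red), with circles and SE bars for TMM scaling, crosses for scaling by library totals and plus signs for transcript length offsets. Dotted lines give the median of the longest of 5 equal groups of genes, -0.75 in WT and -0.80 in KO, and Nlgn2 is above 0 under all 3 scalings while Nlgn1 and Nlgn3 change sign with the length offsets.

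Ratios between members of a family within a library do not depend on the scaling of libraries, and they show how the makeup of each family differed. There were 13.7 to 14.2 Nlgn2 counts for each Nlgn1 count in input WT and 63.6, 117 and 89.4 in TRAP WT. In KO the ratio was 11.3 to 12.5 in input and 84.5, 74.8, 81.4 and 52.1 in TRAP. Against input, the TRAP ratio of Nlgn2 to Nlgn1 was thus 6.26-fold higher in WT and 6.07-fold higher in KO. Ratios of genes that differ in transcript length still carry the dependence on length, and from the fits with length offsets this ratio was 4.14-fold higher in WT and 3.85-fold higher in KO. Over both genotypes, no TRAP library came near an input library.

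The Nlgn3 to Nlgn1 ratio was 1.87, 1.95, 1.90 and 2.06 in input WT and 2.32, 3.22 and 4.85 in TRAP WT, 1.70-fold higher in TRAP, and in KO it was 1.62-fold higher. Nlgn2 gained on Nlgn3 as well, by 3.67-fold in WT and 3.76-fold in KO. From the fits with length offsets, Nlgn3 to Nlgn1 was 1.49-fold higher in WT and 1.31-fold in KO. Nlgn2 to Nlgn3 was then 2.77-fold and 2.94-fold higher. The permutation tests used the ratios of counts, without these offsets. Each of the 3 neuroligin ratios had an exact two-sided permutation p of 0.0286 in each genotype, the smallest that the 35 splits of 7 libraries allow, and a Benjamini-Hochberg adjusted p of 0.0357 over 5 ratios. In the order of change, Nlgn2 was thus followed by Nlgn3 and then Nlgn1. With any 1 library left out the smallest p allowed is above 0.05, so those values carry no call.

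The Mdga1 to Mdga2 ratio turned over. Input WT libraries held 1.93, 1.62, 0.946 and 0.757 Mdga1 counts for each Mdga2 count, and TRAP WT libraries held 0.243, 0.151 and 0.0306. Input KO libraries held 1.57, 1.39 and 0.928 and TRAP KO libraries 0.168, 0.194, 0.296 and 0.0946. The ratio was 11.8-fold lower in TRAP in WT and 7.28-fold lower in KO, each with an exact permutation p of 0.0286 (adjusted 0.0357). TRAP WT library 3 had the lowest ratio, and without it the log2 difference in WT was -2.68 in place of -3.56.

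The Nrxn2 to Nrxn3 ratio was similar in both fractions. It was 4.17, 3.62, 3.76 and 3.70 in input WT and 4.08, 2.93 and 4.36 in TRAP WT, a log2 difference of -0.03 with an exact permutation p of 0.914. In KO the log2 difference was -0.04 and the exact permutation p 0.743. The neurexin ranges overlapped in both genotypes.

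**Figure D3:**
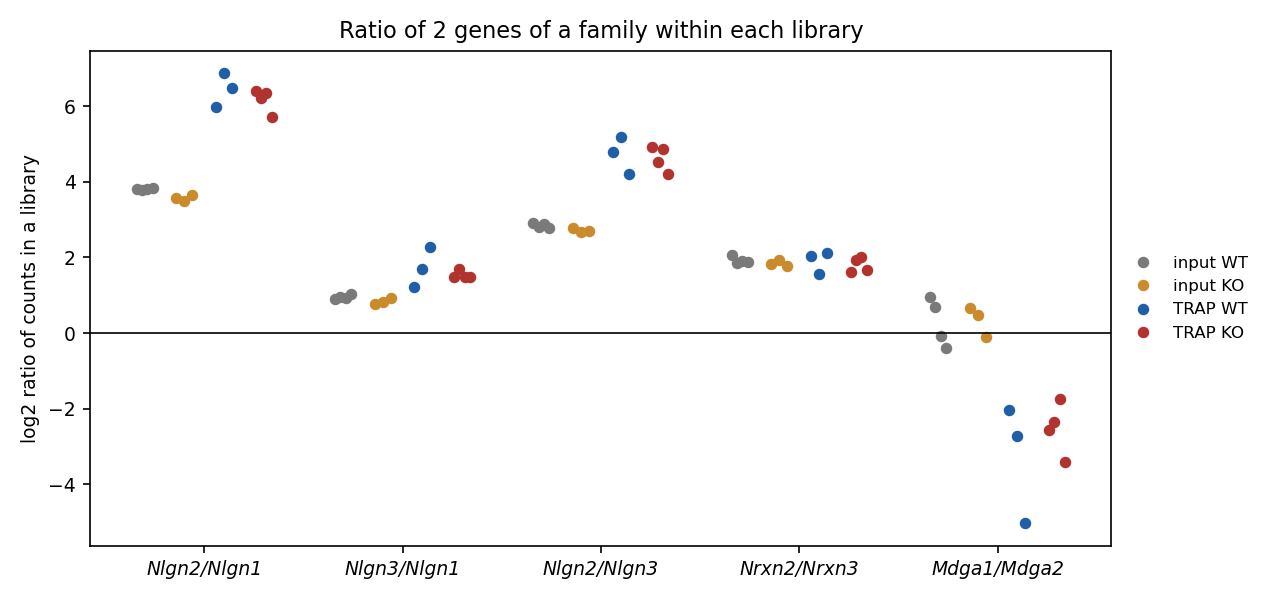
Log2 ratio of the counts of 2 genes of a family in each library (vertical axis), for 5 pairs and 4 groups, 1 point a library. The TRAP points lie above the input points for the 3 neuroligin pairs, below them for Mdga1/Mdga2 and among them for Nrxn2/Nrxn3.

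Per kb of the longest transcript, a scale on which levels of different genes can be compared, input WT had the order Nrxn2 (91.5 ± 3.01 CPM per kb, SD, n = 4), Nlgn2 (39.6 ± 1.44), Nrxn3 (20.2 ± 0.843), Nlgn3 (3.60 ± 0.264), Mdga1 (2.74 ± 1.01), Mdga2 (1.83 ± 0.147) and Nlgn1 (1.34 ± 0.0480). The ranges of Mdga1 overlapped those of its neighbours Nlgn3 and Mdga2 in that order, and the other neighbours were apart. In TRAP WT the order was Nlgn2 (121 ± 22.0 CPM per kb, SD, n = 3), Nrxn2 (40.6 ± 8.19), Nrxn3 (9.44 ± 3.39), Mdga2 (4.24 ± 1.04), Nlgn3 (3.13 ± 1.34), Nlgn1 (0.649 ± 0.0906) and Mdga1 (0.612 ± 0.390). Mdga2 overlapped Nlgn3, and Nlgn1 overlapped Mdga1. Nlgn2 thus went from the second place to the first, and Mdga2 from below Mdga1 to above it. Nrxn2, Nlgn2 and Nrxn3 held the top 3 places in every group also with mean or coding transcript length, while the order of the lower 4 genes changed with the length used.

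On that scale Nlgn2 made up 88.9% ± 0.272 (SD, n = 4) of the 3 neuroligins in input WT and 97.0% ± 0.881 (SD, n = 3) in TRAP WT. Nlgn3 went from 8.07% to 2.48% and Nlgn1 from 3.00% to 0.538%. In KO the Nlgn2 share was 87.9% ± 0.337 (SD, n = 3) in input and 96.8% ± 0.729 (SD, n = 4) in TRAP. The shares moved with the length used. With coding length Nlgn2 made up 82.7% in input WT and 95.2% in TRAP WT, and 81.1% and 94.8% in KO. Nlgn1 then went from 5.87% to 1.11% in WT. The SDs cover the spread between libraries and not the choice of length. Shares also carry the dependence of TRAP against input on length, and none was computed with length offsets. Nlgn2, the inhibitory synapse member, was thus most of the neuroligin RNA in both fractions and both genotypes, and the shares in TRAP and input did not overlap.

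The effect of the knockout was then tested within each fraction. In TRAP none of the 7 genes passed, beside 0.00707% of the 14145 genes tested, which is Astn2 alone. At an unadjusted p under 0.05 there were 0 members, against 1.50% of all genes, and the DESeq2 Wald test also called none of the 7. KO and WT ranges overlapped for all 7 genes, while 4.56% of all genes did not overlap. Log2 fold changes of KO against WT ran from -0.27 in Mdga2 to 0.25 in Mdga1, and every adjusted p was 1.00.

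For the neuroligins in TRAP the 95% intervals of the log2 fold change were -0.36 to 0.53 for Nlgn1, -0.62 to 0.30 for Nlgn2 and -0.69 to 0.47 for Nlgn3. Nrxn2 had an interval of -0.40 to 0.60 and Nrxn3 of -0.45 to 0.72. Mdga2 had -0.70 to 0.15 and Mdga1, the least abundant, -0.88 to 1.39. These intervals exclude a 2-fold change in either direction for each gene but Mdga1, and they do not show that the genotypes are alike. Without TRAP WT library 3 the sign turned for Nlgn3, Nrxn2, Nrxn3 and Mdga1, without TRAP WT library 2 for Nlgn1, without TRAP KO library 3 for Nrxn2 and Mdga1, and without TRAP KO library 4 for Nlgn2, with no call in any case.

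In whole cerebellum none of the 7 genes passed either, beside 0.0188% of 15997 genes. Nrxn2 was 543, 569 and 544 CPM in KO against 590 to 638 CPM in WT, without overlap. KO against WT was -0.20 ± 0.06 on the log2 scale (SE, unadjusted p 0.00638, adjusted p 0.222, edgeR), and Nrxn2 was the only member under an unadjusted p of 0.05, as were 13.7% of all genes. Nlgn2 was also lower in every KO than in every WT input library, at -0.12 ± 0.06 (SE, adjusted p 0.459, edgeR), and Nlgn1 was higher in every KO library, at 0.10 ± 0.08 (adjusted p 0.607). The ranges of these 3 members did not overlap, as was the case for 11.4% of all genes.

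The remaining input differences were small, between -0.21 in Mdga1 and 0.09 in Mdga2. The sign for Mdga1 rests on sex as a covariate, as its mean was 24.6 CPM in KO and 23.1 CPM in WT and the fit without sex gave 0.06. The intervals were narrower than in TRAP, for example -0.26 to 0.03 for Nlgn2 and -0.33 to -0.07 for Nrxn2. The Nlgn2 to Nlgn1 ratio was lower in all 3 KO input libraries (11.8, 11.3 and 12.5) than in the 4 WT libraries, by 0.24 on the log2 scale. The exact two-sided permutation p was 0.0286, the smallest that the 35 splits allow, and the adjusted p over 5 ratios 0.143, which does not pass. A single ratio at that smallest p cannot pass after adjustment over 5 ratios, so the lack of a call here decides nothing. KO against WT in input also varied with transcript length, with medians of -0.05 (log2) in the shortest and 0.06 in the longest of 5 equal groups of genes. With length offsets Nlgn1 in input stood at -0.021, and no ratio between genotypes was computed with such offsets. In TRAP no ratio differed by genotype, with adjusted p of at least 0.821.

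**Figure D4:**
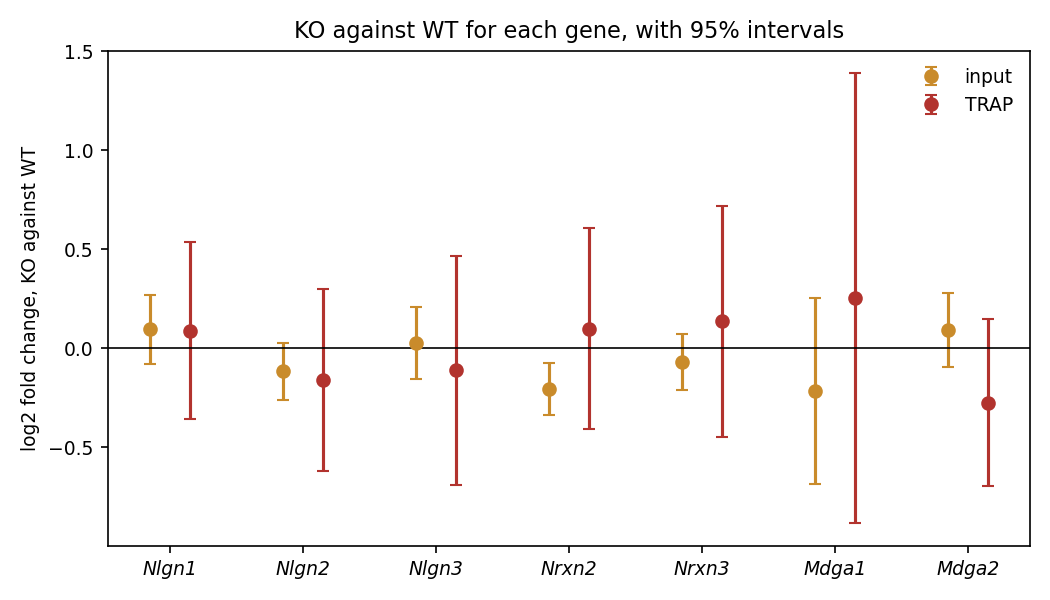
Log2 fold change of KO against WT (vertical axis) with 95% intervals for each gene in input (gold) and TRAP (red). All points lie between -0.27 and 0.25, all TRAP intervals span 0, and the input interval of Nrxn2 runs from -0.33 to -0.07.

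The genotype by fraction interaction asks whether TRAP enrichment differed between KO and WT, and it was called for 0% of 16042 genes and for no member. Mdga2 came closest, with an interaction of -0.43 ± 0.19 (SE, unadjusted p 0.0378, adjusted p 0.999, edgeR), where 2.68% of all genes had an unadjusted p under 0.05. The Mdga2 enrichment was 1.23 in WT and 0.80 in KO, and without TRAP WT library 3 the interaction was -0.21. The interaction of the other members ran from -0.22 in Nlgn3 to 0.39 in Mdga1.

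Other ligands of neurexins were mostly lower in TRAP. Of 21 tested, 5 were higher and 14 lower in WT, with a median log2 fold change of -1.63, against 37.0% higher, 38.5% lower and a median of -0.09 over all genes. In KO 5 were higher and 15 lower, with a median of -1.36, against 36.3%, 39.6% and -0.11. This list and those that follow are set beside all genes and not beside genes of like length. The WT median ran from 0.77 in the shortest to -0.75 in the longest of 5 equal groups of genes. Of the longest group 58.9% were lower in WT. The part of transcript length in the list values was not tested. Among those that rose were Clstn3, a calsyntenin, at 2.23 ± 0.16 (SE) in WT, and Adgrl2, a latrophilin, at 1.93 ± 0.23. Lrrtm2 at -3.21 ± 0.23, Cbln3 at -2.49 ± 0.23 and Lrrtm3 at -2.44 ± 0.18 were the lowest of the called ligands with a mean of at least 1 CPM, and the granule cell ligand Cbln1 fell by 1.80 in WT and by 1.68 in KO. Cbln3 is also in the granule marker list and Nxph1 in the interneuron list, so the lists share members.

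Postsynaptic partners of neuroligins were more evenly split. Of 15 tested, 7 were higher and 4 lower in WT, and 5 were higher and 5 lower in KO, with medians of 0.20 and -0.01. The number called, 11 and 10 of 15, is near the 75.5% and 75.9% of all genes. Iqsec3, an exchange factor of inhibitory synapses that binds gephyrin, was at 1.93 ± 0.21 (SE) in WT and the scaffold Shank2 at 1.80 ± 0.30. Dlg1 at -2.36 ± 0.24 and Magi1 at -1.86 ± 0.14 were lower. In KO the 3 largest rises were those of Shank1 at 1.67 ± 0.16, Iqsec3 at 1.64 ± 0.22 and Shank2 at 1.62 ± 0.32.

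Presynaptic partners of neurexins were lower in 7 of 9 cases and higher in 1 in each genotype, with medians of -1.37 in WT and -1.09 in KO, where 38.5% and 39.6% of all genes were lower and the medians of all genes were -0.09 and -0.11. Lin7a at -3.45 ± 0.17 (SE), the vesicle calcium sensor Syt1 at -2.29 ± 0.20 and Mpp2 at -2.07 ± 0.29 fell most in WT, and Lin7b rose, at 1.79 ± 0.12. Among genes for cleavage and splicing of neurexins and neuroligins, 5 were higher and 7 lower of 14 in WT, and 4 higher and 7 lower in KO, with medians of -0.13 and -0.06. In that list 12 and 11 genes were called, beside 75.5% and 75.9% of all genes. Khdrbs2, a splicing factor that acts on neurexin transcripts, rose by 1.78 ± 0.13 in WT and 1.63 ± 0.14 in KO, while the neuronal splicing factor Rbfox3 was at -2.02 ± 0.45 and -1.77 ± 0.42. The counts are per gene, so splice forms of the neurexins were not analysed here. In all 4 lists together, no gene was called higher in one genotype and lower in the other.

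KO against WT called no gene of these lists in either fraction or in the interaction. In TRAP 1 of 19 ligands and none of 15, 9 and 14 genes of the other lists had an unadjusted p under 0.05, against 1.50% of all genes. In input it was 5 of 21 ligands, 3 of 15 postsynaptic, 1 of 9 presynaptic and 1 of 14 processing genes, against 13.7% of all genes.

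**Figure D5:**
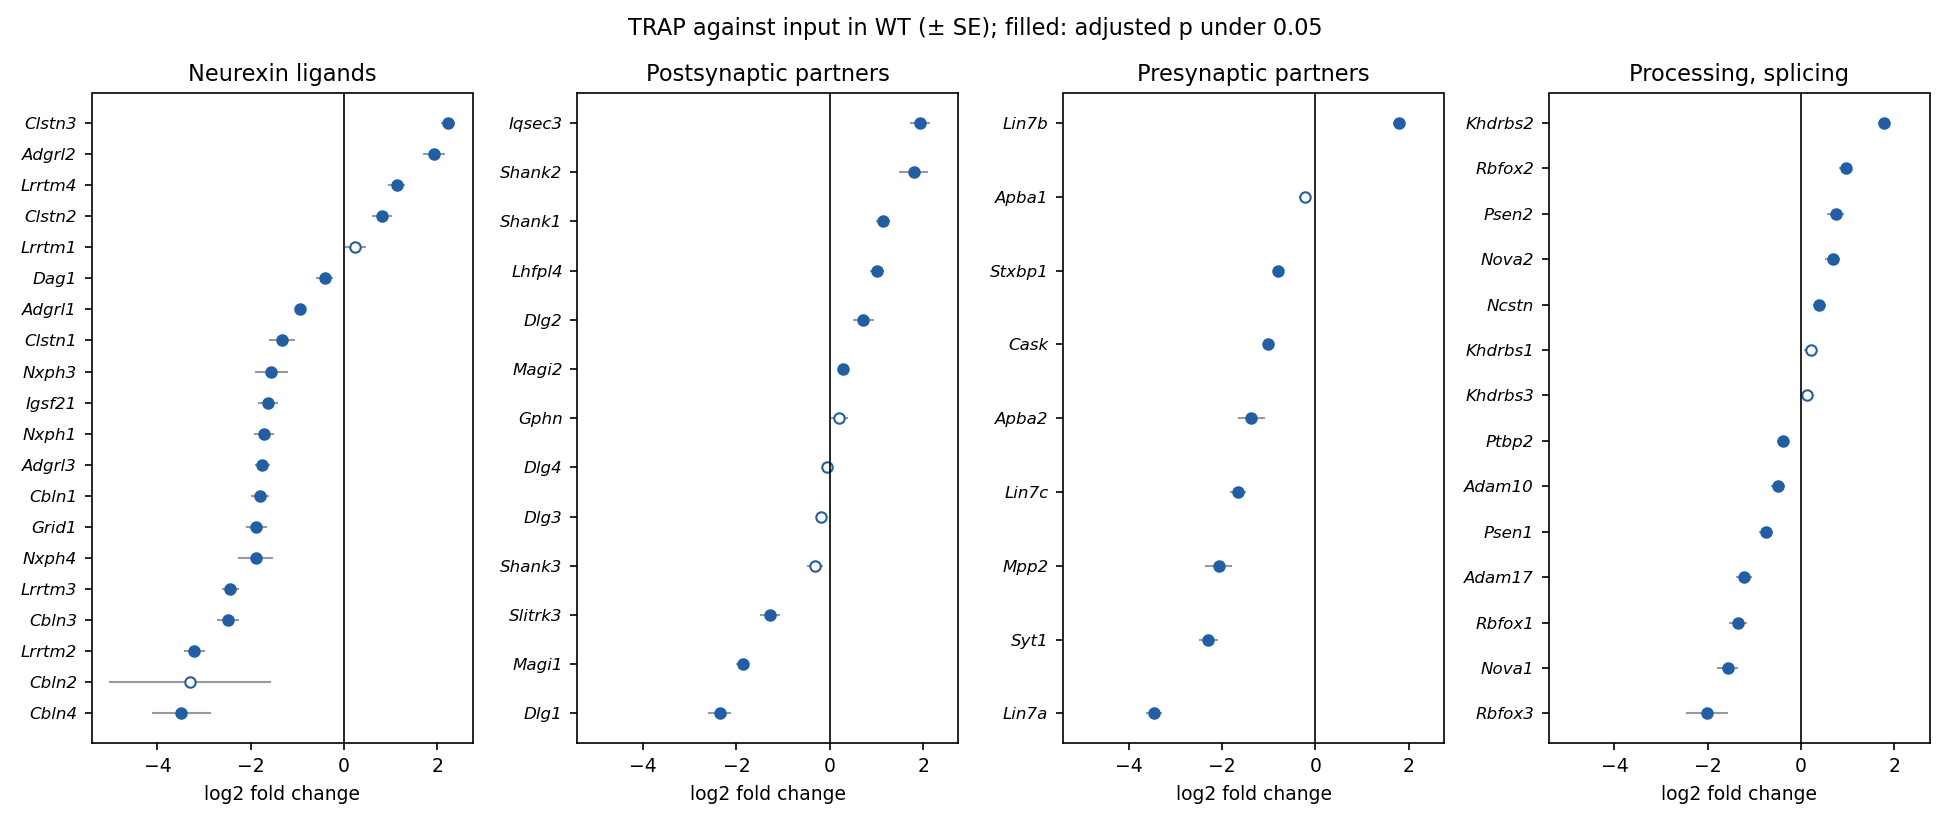
Log2 fold change of TRAP against input in WT with SE (horizontal axis) for named genes of 4 partner lists, filled where the adjusted p was under 0.05. Ligands run from -3.49 in Cbln4 to 2.23 in Clstn3, and most of the presynaptic list lies left of 0.

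The genes whose level followed each member most closely were sought among 11016 genes with a mean of at least 5 CPM, by Pearson's r of log2(CPM + 1) over the 14 libraries. Since input and TRAP libraries form separate clusters, r mostly reflects the fraction, and r of the deviations from the 4 group means is given beside it. Nlgn2 was closest to Dpm3 (r = 0.994, within groups 0.901) and Asph (0.994 and 0.833), and Nlgn1 to Nebl (0.993 and 0.822) and Zfp334 (0.993 and 0.767). Nlgn3 followed Xk (0.963 and 0.952) and B3galt2 (0.955 and 0.942). Nrxn2 followed Gpr162 (0.996 and 0.980) and Cdh22 (0.996 and 0.988), Nrxn3 Tcf4 (0.990 and 0.986) and Ddx5 (0.989 and 0.942). Mdga1 was closest to Samd14 (0.979 and 0.933) and Zfp811 (0.979 and 0.926) and Mdga2 to Uso1 (0.994 and 0.964) and Ankrd42 (0.993 and 0.942). No member was among the 2 closest genes of another.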

How the data were processed

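The authors deposited raw read counts per gene for 14 libraries, with NCBI Entrez numbers as row names. Per the submitters' processing notes, Salmon 0.8.2 and mm10 were used. Their role, the aligner, the counting settings, the annotation and the strand setting are not given in the sources used here. Symbols came from RefSeq GRCm38.p6 (24045 of 24100 genes matched) and positions, lengths and GC content from GENCODE M21 (23784 genes). Groups, sex and replicate numbers follow the labels.

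edgeR 4.0.16 (R 4.3.3) was used with TMM factors, filterByExpr, sex as a covariate, two-sided quasi-likelihood tests and Benjamini-Hochberg adjustment at 0.05. TRAP against input and the interaction were fitted on all 14 libraries, and KO against WT on the 7 of each fraction. All 7 members passed the filter in every comparison. Standard errors were derived from each log2 fold change and its F statistic. Ratios of counts (0.5 added) were compared by exact permutation over 35 splits. Alternatives were other scalings and filters, a fit without sex, the Wald test of DESeq2 1.42.0, a replicate block, left-out libraries, fits on other sets of libraries and, chosen after seeing the data, loess offsets (span 0.3) for length and GC content and leaving out TRAP WT 3 and TRAP KO 4 together. The fits were run on simulated counts with a fixed spread for each comparison and no outlying library. For KO against WT in TRAP that spread was smaller than in the data. The simulation thus does not show which changes these fits would detect in TRAP.

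Same-numbered input and TRAP libraries of a genotype had r of their deviations from -0.124 to 0.292 over genes. Only number 3 in KO was below 0. These values do not settle which libraries share an animal, and the labels do not say, so numbers were not taken as pairs. Chi-square per degree of freedom between libraries of a group was 8.63 to 267, so none was counted as a duplicate. Members, partner lists and marker lists were chosen with earlier results of these data known. The text names the members, Astn2, Cbln1, Slc22a12, up to 3 called genes per partner list and direction with a mean of at least 1 CPM, and the 2 genes closest in pattern to each member. Other names were added after their values were seen, Cbln4 and Nxph1 among them. A few genes that the rule selects are not reported here.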

Additional observations from a re-analysis of the deposited data

Results flagged for a closer look

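The ratio of Nlgn3 to Nlgn1 in TRAP KO library 2, at 3.23, lay far from the other TRAP KO libraries, which were at 2.80, 2.77 and 2.80. Its gap to the nearest was 0.932 of the whole range of the group on the log2 scale, above Dixon's critical value for 4 libraries. A total of 24 such values were examined, and chance flags about 1 in 20 groups. All 4 TRAP KO values stayed above the 3 input KO values, the highest of which was 1.91. Without that library the log2 difference between TRAP and input in KO was 0.64 in place of 0.69.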

How the results depend on the processing

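The members called higher in TRAP were Nlgn2 and Mdga2 under most settings. Calls in WT were 2 to 3 higher and 2 to 5 lower over 19 settings, and in KO 1 to 3 higher and 1 to 5 lower. With length offsets 2 members were called lower in WT and 1 in KO. With library totals 1 was called higher in KO, and with the further condition of a change of 1 or more on the log2 scale it was 1 higher and 2 lower. Length offsets turned Nlgn1 to 0.11 in both genotypes and Nlgn3 to 0.69 in WT and 0.50 in KO. Under other settings Nlgn3 in KO was between -1.14 and -0.32 and passed under 8 of them, so its call is not settled. The cause was not tested.

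No member was called for KO against WT or the interaction under any setting run, so the sign changes that follow are of values that passed no test. Genes called in TRAP were 1, with 3 by the DESeq2 Wald test, 2 with all 14 libraries in one fit and 1 to 2 with a library left out. Genes called in input were 3, with 5 under DESeq2 size factors, 23 without a filter, 292 by the Wald test, 1 with the replicate block and 1 to 158 with a library left out, the 158 without input KO library 2. The Wald test called 1 gene for the interaction, in place of 0.

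KO against WT in TRAP turned to -0.0034 for Nlgn1 with length offsets, and without both TRAP WT 3 and TRAP KO 4 to 0.032 for Nlgn2 and 0.20 for Nlgn3. In input, length offsets gave -0.021 for Nlgn1, -0.055 for Nlgn3 and -0.0054 for Mdga2, and the fit without sex gave -0.022 for Nlgn3 and 0.063 for Mdga1. The interaction of Nlgn1 was 0.044 with library totals, that of Nlgn2 0.012 with the replicate block and 0.071 without both libraries, and that of Nlgn3 0.19 without both. With a library left out, values in TRAP ran from -0.029 to 0.25 for Nlgn1, -0.38 to 0.016 for Nlgn2, -0.32 to 0.23 for Nlgn3, -0.13 to 0.23 for Nrxn2, -0.085 to 0.46 for Nrxn3 and -0.26 to 0.78 for Mdga1, and in input from -0.024 to 0.10 for Nlgn3. The interaction ran from -0.13 to 0.029 for Nlgn1, -0.22 to 0.032 for Nlgn2, -0.37 to 0.20 for Nlgn3, -0.028 to 0.61 for Nrxn3 and -0.080 to 0.73 for Mdga1.

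Ratios of TRAP to input with the replicate block rest on 3 pairs, which cannot give an exact p under 0.25, and with 1 or more libraries left out the smallest p is also above 0.05, so the loss of a call there follows from the number of libraries. With the replicate block the log2 differences in WT were 2.65 for Nlgn2/Nlgn1, 0.80 for Nlgn3/Nlgn1, 1.86 for Nlgn2/Nlgn3 and -3.79 for Mdga1/Mdga2, and in KO 2.76, 0.71, 2.05 and -2.57, with 0.0024 for Nrxn2/Nrxn3. Without both TRAP WT 3 and TRAP KO 4 they were 2.63, 0.49, 2.14 and -2.68 in WT and 2.76, 0.71, 2.05 and -2.57 in KO, with 0.0024 for Nrxn2/Nrxn3. With a library left out they ran from 2.43 to 2.87, 0.49 to 1.02, 1.64 to 2.14 and -4.17 to -2.68 in WT, with -0.14 to 0.15 for Nrxn2/Nrxn3. In KO they ran from 2.52 to 2.76, 0.64 to 0.74, 1.82 to 2.05 and -3.12 to -2.57, with -0.11 to 0.021 for Nrxn2/Nrxn3. For KO against WT in TRAP, Nlgn2/Nlgn3 was 0.054 with the replicate block, and without both libraries Nlgn3/Nlgn1 was 0.099 and Nrxn2/Nrxn3 0.063. With a library left out those ratios ran from -0.35 to 0.15, -0.45 to 0.083 and -0.27 to 0.017, and Mdga1/Mdga2 from -0.14 to 1.36. In input Mdga1/Mdga2 was -0.18 with the replicate block and ran from -0.18 to 0.27 with a library left out.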

Other observations

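In whole cerebellum, 5 of the 21 neurexin ligands tested had an unadjusted p under 0.05 for KO against WT, and all 5 were lower in KO. Over all 15997 genes 13.7% had such a p, in either direction. They are named after their values were seen. Among them were the cerebellins Cbln1, Cbln3 and Cbln4. Their log2 fold changes were -0.26 ± 0.08 (SE), -0.24 ± 0.07 and -0.72 ± 0.29, with adjusted p in edgeR's test of 0.246, 0.246 and 0.336. Cbln4 had only 29 to 41 counts in the input WT libraries and 26 to 45 in input KO. The cerebellin Cbln2 was not among the 5, with input means of 0.235 CPM in WT and 0.255 CPM in KO. Igsf21 was at -0.17 ± 0.07 and the latrophilin Adgrl1 at -0.18 ± 0.06, with adjusted p of 0.313 and 0.272. None passes over all genes tested. Cbln1 ranged from 920 to 1107 CPM in the input KO libraries and from 983 to 1233 CPM in input WT, so the groups overlapped.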
